A study of Mus musculus with 5 samples.

Results

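The promoters occupied by REX1 in mouse embryonic stem cells (mESCs) were compared, gene by gene, with those occupied by the catalytically inactive RNF12 H569A,C572A mutant. A protein-coding gene counted as a target of a peak list when a peak summit lay within 1 kb of any of its annotated transcription start sites (TSSs), on chromosomes 1 to 19 and X. Of 21755 protein-coding genes, 14678 were REX1 targets (67.5%) and 14738 were mutant targets (67.7%), which made 15780 genes in at least 1 of these lists. Both lists held 13636 genes (62.7%), 1042 were REX1 targets only (4.79%), 1102 were mutant targets only (5.07%) and 5975 were in neither (27.5%).

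The series holds data of female mESCs, strain 129/Sv-Cast/Ei, by chromatin immunoprecipitation with a V5 antibody and sequencing (ChIP-seq). REX1 cells were WT with FLAG-V5-REX1, the mutant cells were Rlim+/- with FLAG-V5-RNF12(H569A,C572A), and the cells of the RNF12 WT list, used here as an outside reference, were Rlim+/- with FLAG-V5-RNF12 WT. Both RNF12 proteins were introduced into the F1 2-1 line by pCAG expression vectors, and Rlim+/- cells keep a functional copy of Rlim. For REX1 the vector is not given in the sources used here, and the study refers to earlier work for REX1 occupancy, so the REX1 library may come from another experiment. A difference between experiments cannot be told apart from one between the proteins. The RNF12 cells had received 15 µM of the proteasome inhibitor MG132 for 3 h before cross-linking with 2 mM disuccinimidyl glutarate and 1% formaldehyde, whereas the treatment of the REX1 cells was not settled from the sources used here. Peak lists hold no expression values, so the cell type was not checked against its markers.

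RNF12 is a RING-type E3 ubiquitin ligase encoded by the X-linked gene Rlim. It ubiquitylates REX1, which is then degraded by the proteasome, and the pair is known for its part in X chromosome inactivation in female stem cells. REX1, encoded by Zfp42, is a C2H2 zinc-finger protein of the YY1 family and a marker of naive pluripotency. Like YY1 it recognises sequences with an ATGGC core, and CpG-rich promoters often hold such a core close to the TSS.

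Each list came from 1 library, so there are no replicates, no test between the lists was made and no p-value is given. Strength is given as the percentile of a gene's strongest promoter peak among all peaks of its own list, by the authors' fold enrichment over control. Which control stands behind which list was not settled, so a fold enrichment is given only on the scale of its own list, and lists are compared by percentile. Shares carry 95% Wilson intervals that cover counting error over genes only, and library depth is not known. The lists differ in the kind of sequence under their peaks: the 32 bases at the summit occurred once in the genome for 84.8% of 95744 REX1 peaks, 84.2% of RNF12 WT peaks and 48.6% of 96846 mutant peaks. Among the strongest promoter peaks of genes in both lists the shares were 96.8% for REX1 and 95.6% for the mutant, but only 69.6% for mutant-only genes against 93.5% for REX1-only genes.

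The REX1 string ATGGCKVC (with K for either G or T and V for any base but T) is the conserved core of the REX1 motif. Matches on either strand within 50 bp of a summit were counted. The string was present in 7.84% of the 300-base promoters of all genes. The following 30-base windows of GRCm38 (mm10) are centred on the match nearest to the REX1 summit at genes described below, written 5′ to 3′ along the gene, with the string or its reverse complement in capitals, also where the window's end cuts a further match.
Washc4, chr10:83543822-83543851, plus strand: ggatgccaacgGCAGCCATcactATGGCGG
Deaf1, chr7:141328237-141328266, minus strand: ctggccgcacgGCCGCCATtttgccgctgg
Wdr43, chr17:71616250-71616279, plus strand: ccagagcagcaATGGCGGCcggaggcggcg
Crat, chr2:30416132-30416161, minus strand: gcgcgaaggcgGCAGCCATgccggtgcgag
Ctcf, chr8:105636534-105636563, plus strand: tgcaccgcgccGCCGCCATtttgtgtccga
Smurf2, chr11:106920419-106920448, minus strand: ctccgcggctcATGGCGACggcgctcggca
Fopnl, chr16:14317303-14317332, minus strand: gccgttgaaaaATGGCGACtgttacggaac
Dbt, chr3:116513130-116513159, plus strand: tccggagtaaaATGGCTGCagcgcgtgtac
Ap4s1, chr12:51691217-51691246, plus strand: taaaagccaaaATGGCTGCcccaaggatgc
Lpar6, chr14:73238603-73238632, plus strand: ggtaagctccaATGGCTCCcagtgccctta

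The middle of the string lay 0 to 14 bp from the REX1 summit in these windows. Of the 10 entries of genes that ranked highest in both lists, 5 held it at the REX1 summit. So did 3 of the 6 highest REX1-only entries, against 11.6% of all REX1-only genes. It was held by 1 of the 6 shared entries ranked furthest towards the REX1 list and 0 of the 6 furthest towards the mutant list, against 15.7% of all shared genes. The GC box, GGGCGG, is the sequence bound by SP and KLF factors. It was at the mutant summit of 3 of the 10 entries highest in both lists. In each of those shared groups 2 of 6 held it, against 41.8% of all shared genes. Of the 6 highest mutant-only entries 2 held it, against 24.4% of all mutant-only genes. Counts this small set no group apart, and the entries were chosen by the percentiles themselves. Shown with Yy1 are entries with a GC box at the mutant summit, 2 of the 6 furthest towards the mutant list and 2 of the 6 mutant-only. The windows have the same length and are centred on the GC box nearest to the mutant summit, with GC boxes on either strand in capitals.
Pola2, chr19:5964200-5964229, minus strand: cgtgcgcggggaGGGCGGggcccgagcaga
Cbx6, chr15:79834294-79834323, minus strand: cccgccgagcgcCCGCCCgccgggggcctg
Yy1, chr12:108793080-108793109, plus strand: cgccggcccggaGGGCGGgaggaggcgcgg
Fam168b, chr1:34842677-34842706, minus strand: cggcgggccgggGGGCGGGGCGGgaaggtc
Minpp1, chr19:32485856-32485885, plus strand: tgcgctctgctcCCGCCCccgccggcggat

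The target sets of the full lists overlapped broadly. Of REX1 targets, 92.9% (92.5% to 93.3%) were also mutant targets, and of mutant targets 92.5% (92.1% to 92.9%) were also REX1 targets. Among genes that were not REX1 targets, 15.6% (14.7% to 16.4%) were mutant targets, and among genes that were not mutant targets, 14.8% (14.04% to 15.7%) were REX1 targets. The overlap depended on the threshold of the lists. When only the 20000 peaks with the highest −log10 q of each list were kept, 4086 genes were in both lists, 53.2% of REX1 targets and 64.3% of mutant targets. Neighbouring genes can share a peak, and the 13636 genes in both lists rested on 12474 REX1 peaks and 12394 mutant peaks. As a share of peaks, promoter peaks made up 31.6% (31.3% to 31.9%) of the REX1 list and 26.3% (26.0% to 26.6%) of the mutant list.

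The rule has a limit at 1 kb, and few genes lay at it. The nearest REX1 summit lay less than 100 bp inside the limit at 82 genes and up to 100 bp outside it at 51, with 81 and 73 genes for the mutant. Some genes held by 1 list had a summit of the other list further out. At 29.3% (26.6% to 32.1%) of REX1-only genes a mutant summit lay 1 to 3 kb from a TSS, and at 23.7% (21.3% to 26.3%) of mutant-only genes a REX1 summit did. At genes in neither list the corresponding shares were 11.6% (10.8% to 12.4%) for mutant summits and 10.1% (9.39% to 10.9%) for REX1 summits.

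The overlap was greater for stronger peaks. Of the 10% of REX1 targets with the lowest percentiles, 83.7% (81.7% to 85.5%) were mutant targets, against 97.5% (96.6% to 98.2%) of the highest 10%. For the mutant the range was wider, from 70.8% (68.4% to 73.0%) in the lowest 10% to 98.2% (97.4% to 98.8%) in the highest. When only mutant targets with a single-copy summit were kept, the lowest of these 10 groups stood at 76.0% (73.5% to 78.2%). Genes held by 1 list had weaker peaks in it: the median REX1 percentile was 78.6 at genes in both lists and 56.2 at REX1-only genes, and the median mutant percentile was 80.9 and 51.2.

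**Figure D1:**
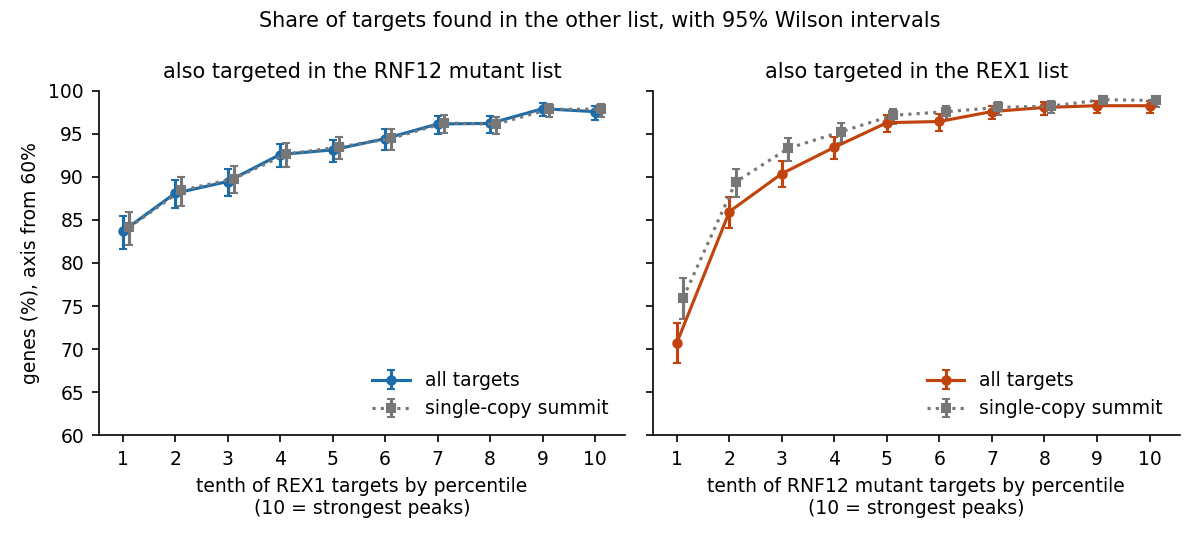
Share of target genes that were also targets in the other list (y axis, %, starting at 60%), in 10 groups of the target's own percentile (x axis, 10 = strongest), for REX1 targets (left) and RNF12 mutant targets (right). Circles are all targets, squares those whose summit sequence occurs once in the genome, and bars are 95% Wilson intervals. For all targets, the shares of groups 1 and 10 are 83.7% and 97.5% on the left and 70.8% and 98.2% on the right.

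The RNF12 WT list, which the classes were not built from, was set beside them. RNF12 WT targets were 68.9% of all protein-coding genes. They made up 96.8% (96.5% to 97.1%) of genes in both lists, 68.6% (65.8% to 71.3%) of mutant-only genes, 49.9% (46.9% to 52.9%) of REX1-only genes and 8.57% (7.89% to 9.31%) of genes in neither. Mutant-only genes were in the WT list more often than REX1-only genes, by more than the counting intervals, but the size of the gap depended on the choices made. With TSSs within 3 kb the shares were 58.2% and 52.0%, and with the 20000 peaks of highest −log10 q of each list 63.6% and 58.1%. The mutant and WT libraries had the same antibody, treatment and cross-linking, and what the treatment adds to this closeness cannot be told apart from the protein. Of REX1 targets 93.5% were WT targets, and of mutant targets 94.7%.

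At genes in both lists, the ranks of the strongest promoter peaks were only loosely related. Spearman's correlation across the 13636 genes was 0.252, a description of a pair of libraries whose genes are not independent, and 0.123 with the 20000 peaks of highest −log10 q of each list. It was 0.305 at the 5063 genes whose strongest summits lay within 100 bp and 0.210 at the other 8573. At the 13204 genes in all 3 lists, the correlation was 0.245 for REX1 and the mutant, 0.216 for REX1 and RNF12 WT, and 0.337 for the mutant and RNF12 WT. The percentile was at least 90 in both lists at 1335 genes (9.79%), at least 90 in REX1 but under 50 in the mutant at 267 genes (1.96%), and the reverse at 385 genes (2.82%). The median difference, REX1 minus mutant, was -1.04 percentile points, with quartiles at -19.8 and 11.6.

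**Figure D2:**
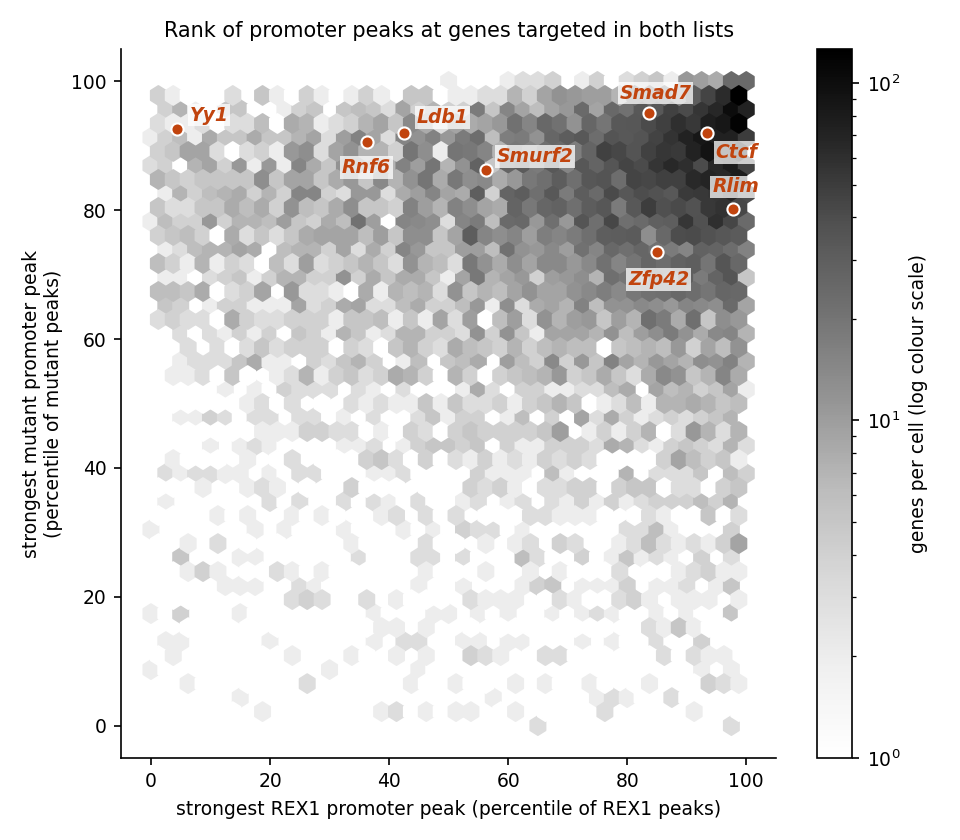
Percentile of the strongest REX1 promoter peak among REX1 peaks (x axis) against that of the strongest mutant promoter peak among mutant peaks (y axis) at the 13636 genes in both lists; shading gives the number of genes per cell on a log colour scale. Labelled points are the 8 shared genes of the RNF12-REX1 axis, from Yy1 at a REX1 percentile of 4.37 to Rlim at 97.8.

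Named here are the 10 entries that ranked highest in both lists. At Cog6, which encodes a subunit of a Golgi tethering complex, the REX1 and mutant summits fell on the same base, 7 bp upstream of the TSS, at percentiles of 99.91 and 99.79. At Wdr43, a ribosome biogenesis factor, the summits were 11 bp apart, at percentiles of 99.87 in the REX1 list and 99.53 in the mutant list. Washc4, a subunit of the actin-regulating WASH complex, ranked at 99.96 and 99.52. The peaks of these genes thus ranked within the top 1% of each list.
The divergent pair Deaf1, a transcription factor gene, and Tmem80 shared 1 peak in each list, with summits 42 bp apart and percentiles of 99.99 for REX1 and 99.68 for the mutant. E2f6, a repressive E2F factor, stood at 99.74 and 99.89, and Sirt1, an NAD-dependent deacetylase, at 99.59 and 99.37. Mrpl15, of the mitochondrial ribosome, stood at 99.57 and 99.20. Crat, carnitine acetyltransferase, and the phosphatase activator gene Ptpa had the same mutant peak (99.91) but different REX1 peaks (99.62 and 99.87). At Ptpa the strongest REX1 and mutant summits lay 25917 bp apart. Ppm1a, a protein phosphatase gene, ranked at 99.27 and 99.40 with summits 3805 bp apart. All 10 entries were RNF12 WT targets.

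At the other extreme were genes in both lists with opposite ranks. Eipr1 had a REX1 percentile of 97.9 and a mutant percentile of 0.537. Fopnl, a gene of centriolar satellites and cilia, ranked at 98.4 for REX1 and 1.38 for the mutant. Its REX1 summit lay 9 bp downstream of a TSS and its mutant summit 156 bp upstream of one. Trub1, a pseudouridine synthase gene, Adck2, the X-linked Magee2 and Hsd17b14 had REX1 percentiles of 91.3 to 98.3 and mutant percentiles of 0.81 to 7.02. In the opposite direction, Atp6v1c1, a subunit of the vacuolar proton pump, had a mutant percentile of 98.2 and a REX1 percentile of 1.69, with summits 37 bp apart. Cbx6, a Polycomb protein gene that shares its peaks with Npcd, ranked at 97.6 in the mutant list and 1.96 in the REX1 list.
Pola2, a subunit of DNA polymerase alpha, Tsg101, of the ESCRT-I complex, Ankle2 and Znhit2 had mutant percentiles of 94.3 to 97.1 and REX1 percentiles of 0.568 to 3.74. Their summits in the lists were 14 to 64 bp apart, so the peaks lay at the same place in the promoter and ranked at opposite ends. All 12 entries were RNF12 WT targets, against 96.8% of all shared genes, at WT percentiles of 5.30 to 99.4.

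Some of the strongest promoter peaks had no counterpart at the gene in the other list. Dbt, a subunit of the branched-chain keto acid dehydrogenase, had a REX1 fold enrichment of 21.9 (percentile 99.85), with its summit 16 bp downstream of a TSS and on the REX1 string. Rbm4 and Zmat2, both genes of splicing factors, ranked at 99.82 and 99.58. Lpar6, a lysophosphatidic acid receptor gene, Ap4s1, of the AP-4 adaptor, and L3mbtl2, a Polycomb-related gene, ranked at 99.54 to 99.57. Of these 6 REX1-only genes, 5 were RNF12 WT targets, against 49.9% of all REX1-only genes, Zmat2 being the exception.
Among mutant-only genes, Fam168b had a fold enrichment of 23.1 (percentile 97.2) and Minpp1, an inositol polyphosphate phosphatase gene, ranked at 97.1. Parg and Timm23, which share a peak, both ranked at 96.7, as did Zfyve27. P4ha3 and Insl3 ranked at 96.1 each. All 6 entries were RNF12 WT targets, against 68.6% of all mutant-only genes, at WT percentiles of 74.3 to 99.1.

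The genes of the proteins themselves, of their relatives and of their known partners were described as a list of 9, the RNF12-REX1 axis. In both lists were 8, which is 88.9% against 62.7% of all genes, and Yy2 was a REX1 target only (percentile 90.7). Rlim, at its promoter on chromosome X, had a REX1 percentile of 97.8 with the summit 162 bp upstream of a TSS. Its mutant percentile was 80.2, with the summit 156 bp downstream. The REX1 peak spans chrX:103981365-103981594 and the mutant peak chrX:103980671-103981218, so they did not overlap. Zfp42 had a REX1 percentile of 85.0 and a mutant percentile of 73.6, with summits 7 and 123 bp upstream of a TSS, and it had no promoter peak in the RNF12 WT list. The 250 bases before the TSS nearest to the REX1 summit are printed for both genes, with GC boxes in capitals: there are 3 at Rlim and 2 at Zfp42, and the REX1 string does not occur in either stretch.
Rlim, chrX:103981285-103981534, minus strand: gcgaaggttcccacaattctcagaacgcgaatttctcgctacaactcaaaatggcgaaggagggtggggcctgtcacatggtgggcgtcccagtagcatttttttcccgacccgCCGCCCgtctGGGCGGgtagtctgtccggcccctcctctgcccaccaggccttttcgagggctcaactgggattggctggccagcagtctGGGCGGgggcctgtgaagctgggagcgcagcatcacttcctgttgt
Zfp42, chr8:43306981-43307230, minus strand: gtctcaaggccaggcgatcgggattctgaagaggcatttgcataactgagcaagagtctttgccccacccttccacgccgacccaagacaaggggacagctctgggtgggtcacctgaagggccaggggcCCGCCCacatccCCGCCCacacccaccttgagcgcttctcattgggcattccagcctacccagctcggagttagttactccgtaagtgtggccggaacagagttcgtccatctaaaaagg

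The other shared members of the axis ranked higher in the mutant list, except Ctcf. Yy1, the founding member of the YY1 family, had the widest gap of the list, with a REX1 percentile of 4.37 and a mutant percentile of 92.6, although the summits were 51 bp apart. Rnf6, encoding the ligase most similar to RNF12, ranked at 36.2 for REX1 and 90.6 for the mutant. Ldb1, a cofactor of LIM domain proteins, ranked at 42.5 and 91.9, and Smurf2, an E3 ligase of the TGF-β pathway, at 56.3 and 86.2.
Smad7, an inhibitor of that pathway, ranked at 83.6 and 95.1, with strongest summits 8274 bp apart. Ctcf, the chromatin insulator protein gene, was close in both, at 93.5 and 92.0. The REX1 string was at the REX1 summit of Ctcf and Smurf2. Over the 8 shared genes of this list, the median percentile was 70.0 for REX1 and 91.3 for the mutant, against 78.6 and 80.9 over all genes in both lists.

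Of 25 genes of naive pluripotency factors, both lists held 18 (72.0%, against 62.7% of all genes), REX1 alone Nanog, Tcl1, Dppa5a and Dppa2, the mutant alone Prdm14 and Dppa4, and neither Dppa3. Those in REX1 alone were 16% of the list, against 4.79% of all genes, and those in the mutant alone 8%, against 5.07%. Nanog, a core pluripotency factor, had a REX1 percentile of 80.0 and a summit 51 bp upstream of a TSS, and it was not an RNF12 WT target either. The other core factors ranked in opposite directions. Pou5f1 (OCT4) had a REX1 fold enrichment of 19.7 (percentile 99.76), with the summit 722 bp downstream of a TSS within an intron, and a mutant percentile of 39.3 at a summit 221 bp upstream of a TSS. Sox2 had a REX1 percentile of 27.01 and a mutant percentile of 90.
Klf4 was high in both lists (94.2 and 98.3), while Klf5 (25.03 and 87.6) and Klf2 (33.5 and 76.2) ranked higher in the mutant list. Tbx3 (97.8 and 67.3) and Lin28a (89.2 and 50.3) ranked higher in the REX1 list, with strongest summits 10776 and 8037 bp apart. Of the 18 shared genes, 7 ranked higher for REX1 and 11 for the mutant, against 6525 and 7111 of 13636 genes overall. The median percentiles were 80.1 and 78.9, near those over all genes in both lists.

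Genes of protein turnover were nearly all in both lists, as were most housekeeping groups. All 31 proteasome subunit genes were targets of both, against 62.7% of all genes, with median percentiles of 86.0 for REX1 and 83.5 for the mutant. Psmc4, an ATPase of the regulatory particle, was among the highest (98.5 and 95.1). Of 45 genes of ubiquitin and its E1 and E2 enzymes, 40 were in both lists, 2 in REX1 alone (4.44%, against 4.79% of all genes) and 3 in neither. Ube2g1 ranked at 98.9 and 97.1. All 19 heat-shock genes were in both lists, and 16 of them ranked higher in the mutant list, against 7111 of 13636 genes overall. Their median percentile was 80.3 for REX1 and 88.8 for the mutant. Hsp90aa1, a cytosolic chaperone gene, ranked at 92.5 and 97.4, and Hspa8 at 95.01 and 90.3. RNF12 cells and not necessarily REX1 cells had MG132, a drug that raises heat-shock gene activity, and the treatment and the list cannot be told apart.

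Mitochondrial ribosomal protein genes ranked higher in the REX1 list more often than in the mutant list. Of 78, both lists held 73 (93.6%, against 62.7% of all genes), REX1 alone 4 (5.13%, against 4.79%) and neither 1. Of the 73 shared genes 46 ranked higher for REX1, against 6525 of 13636 genes overall. Their median percentiles were 89.7 for REX1 and 84.4 for the mutant, and 38 of the 77 REX1 targets held the REX1 string at the summit, against 2264 of 14678 REX1 targets overall (15.4%). Mrpl36 ranked at 99.4 and 98.2, and Mrpl35 was a REX1 target only at 99.2. Of 85 respiratory chain genes 76 were in both lists and 47 of those ranked higher for REX1, and 18 of their 78 REX1 targets held the string. Sdha, of succinate dehydrogenase, ranked at 99.1 and 98.2. Cytosolic ribosomal protein genes, 73 of 83 in both, divided evenly, with 35 higher for REX1 and 38 for the mutant.
Rps15 ranked at 96.2 and 94.1, Rpl7l1 was a REX1 target only (97.8) and Rpl17 a mutant target only (88.2). Of 65 splicing factor genes 61 were in both lists, and of 54 translation factor genes 47. Another 5 translation factor genes were in the mutant list alone (9.26%, against 5.07% of all genes), among them Eif3g (91.2). Srsf2 ranked at 98.9 and 97.4, and Eif2b1 at 97.9 and 99.1.

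Genes of chromatin regulators were also common targets, as were developmental genes, most of which are silent in mESCs. For comparison, 62.7% of all genes were in both lists, 4.79% in REX1 alone and 5.07% in the mutant alone. Of the 13636 in both lists, 6525 ranked higher for REX1. Of 32 genes of Polycomb complexes, 30 were in both lists, with L3mbtl2 in REX1 alone and Pcgf3 in the mutant alone (92.9). Cbx7 ranked at 99.78 and 95.9, with strongest summits 38071 bp apart. All 9 genes of DNA methylation enzymes were in both, Dnmt3a at 94.0 and 92.3. Of 39 Hox genes 36 were in both lists and of 59 other developmental transcription factor genes 57, with median percentiles of 68.5 and 75.7 for Hox genes. Foxa3, a liver and gut factor, ranked at 99.2 and 98.8, and Hoxc5 at 98.5 and 89.6. Of 23 germline and meiosis genes 20 were in both, and 15 of those ranked higher for REX1, for example Ddx4 (98.0 and 90.4). Of 30 imprinted genes 26 were in both, with Ube3a at 94.1 and 98.4 and Mest at 97.8 and 94.5.

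Of 57 clustered protocadherin genes, which encode neuronal cell adhesion proteins, 18 were in both lists (31.6%, against 62.7% of all genes), 12 in REX1 alone (21.1%), 9 in the mutant alone (15.8%) and 18 in neither. Over all genes, 4.79% were in REX1 alone and 5.07% in the mutant alone. Their shared peaks were at median percentiles of 54.5 and 45.2, but only 10 of the 18 had a summit that occurs once in the genome in both lists. For these 10 the median difference was 32.1 points towards REX1, against 3.16 points over all 18. Of 394 Zfp-named zinc-finger genes 301 were in both lists (76.4%), 44 in REX1 alone (11.2%) and 25 in the mutant alone (6.35%), with Zfp207 at 99.3 and 98.1. Of 1135 olfactory receptor genes 8 were in both lists (0.705%), 18 in REX1 alone and 19 in the mutant alone, and of 329 vomeronasal receptor genes 1 was in both, 2 in REX1 alone and 5 in the mutant alone.
Replication-dependent histone genes ranked higher in the mutant list. Of 67, both lists held 63 (94.0%, against 62.7% of all genes), and 60 of those ranked higher in the mutant list, against 7111 of 13636 genes overall. The median percentile of the shared genes was 99.5 for the mutant and 80.3 for REX1. The genes of this family resemble each other, and the median number of genome copies of the summit word was 12 for the mutant and 4 for REX1, and how reads were placed among such copies was not tested. Only 3 shared histone genes had single-copy words in both lists, and all 3 ranked higher for the mutant, among them Hist2h4 (62.2 for REX1 and 91.5 for the mutant).

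**Figure D3:**
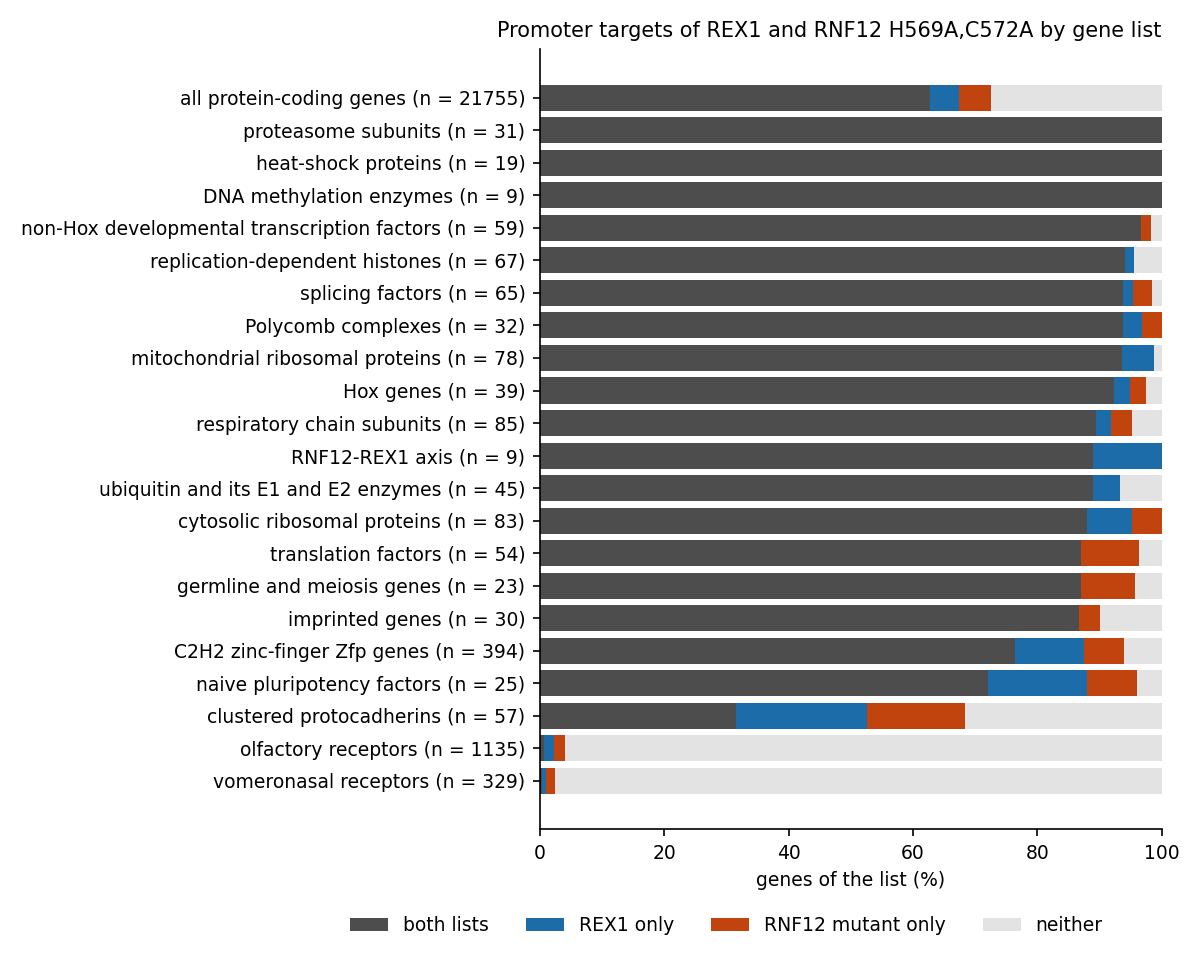
Share of each gene list (x axis, %) that was a target in both lists, in REX1 alone, in the RNF12 mutant alone or in neither, with the number of genes in brackets; the top bar is all 21755 protein-coding genes. Most housekeeping and regulatory lists lie above 85% in both lists, against 62.7% of all genes, and protocadherin and chemoreceptor genes lie below.

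The target rule puts every summit within 1 kb of a TSS, so distances to the TSS are described only within that limit. The strongest summit was within 150 bp of a TSS at 56.7% (55.9% to 57.6%) of shared genes for REX1 and 64.8% (64.0% to 65.6%) for the mutant, and at 44.5% (41.5% to 47.6%) of REX1-only and 47.5% (44.5% to 50.4%) of mutant-only genes. At shared genes the median distance from the TSS was 112 bp for REX1 and 92 bp for the mutant. The strongest summits of the lists were within 50 bp of each other at 23.5% of shared genes, within 100 bp at 37.1% (36.3% to 37.9%) and within 200 bp at 52.7%. The mutant summit was downstream of the REX1 summit at 50.04% (49.2% to 50.9%), so the order of the summits along transcription was even. Many genes had several promoter peaks over all their TSSs, 67.7% of shared genes for REX1 and 53.9% for the mutant. When the nearest pair of summits was taken, 68.7% (67.9% to 69.5%) lay within 100 bp. At 9.68% of shared genes the strongest summits were over 2000 bp apart, at different TSSs of the gene. Where they were within 25 bp, the median percentiles were 85.2 for REX1 and 83.9 for the mutant, against 75.2 and 80.0 where they were 501 to 1000 bp apart.

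**Figure D4:**
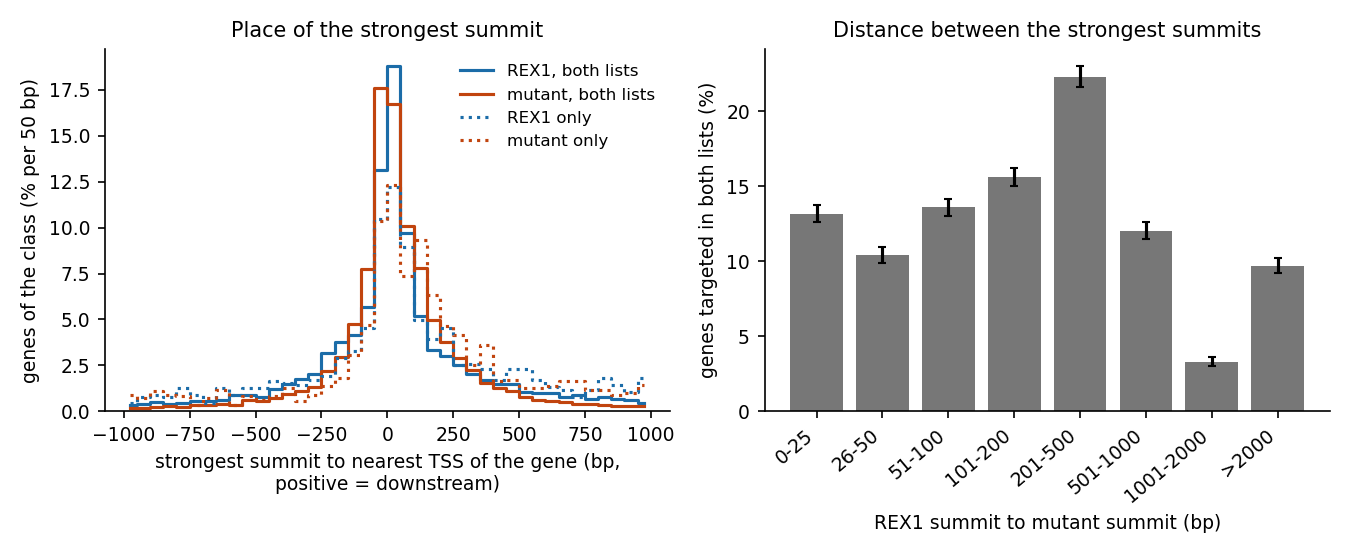
Left, distance of the strongest summit from the nearest TSS of the gene (x axis, bp, positive downstream) as a share of genes per 50 bp (y axis, %), for genes in both lists (solid) and in 1 list (dotted). Right, distance between the strongest REX1 and mutant summits (x axis, bp, in unequal bins) at the 13636 genes in both lists, with 95% Wilson intervals; 13.1% lie within 25 bp and 9.68% beyond 2000 bp.

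Promoter sequence differed between the classes. For each gene, 300 bases around the TSS shared by most of its transcripts were read, 250 before and 50 after, and a promoter was called CpG-rich at a G+C content of at least 50% and an observed to expected CpG ratio of at least 0.6. CpG-rich promoters made up 42.3% (41.6% to 42.9%) of all genes, 64.7% (63.9% to 65.5%) of genes in both lists, 23.6% (21.2% to 26.2%) of mutant-only genes, 7.68% (6.21% to 9.45%) of REX1-only genes and 0.569% (0.408% to 0.794%) of genes in neither. Exclusive targets thus had fewer such promoters than shared targets, and REX1-only genes fewer than mutant-only genes. Of the 9196 genes with CpG-rich promoters, 96.8% were REX1 targets, 98.8% mutant targets and 97.6% RNF12 WT targets. Both lists held 8822 of them. The gene lists above were set against all genes and not against genes with like promoters. Of the other 12559 genes, 45.99% were REX1 targets and 45.04% mutant targets, and there 83.3% (82.4% to 84.3%) of REX1 targets were mutant targets and 85.1% (84.2% to 86.0%) of mutant targets were REX1 targets. A TSS of another protein-coding gene on the opposite strand within 1 kb upstream was found at 16.6% (15.9% to 17.2%) of shared genes, 4.51% of REX1-only genes, 4.26% of mutant-only genes and 11.1% of all genes.

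The letters of the REX1 string follow a motif that the study drew from REX1 peaks, so its share at REX1 summits is a description and no independent result. At genes in both lists it was within 50 bp of the strongest REX1 summit in 15.7% (15.1% to 16.3%) against 1.86% of flanking windows 250 to 350 bp away, and of the strongest mutant summit in 6.60% (6.20% to 7.03%) against 2.34%. At REX1-only genes the share was 11.6% (9.81% to 13.7%), and at mutant-only genes 2.36% (1.62% to 3.43%) against 1.77% in their flanks. Along REX1 targets, it went from 5.10% (4.09% to 6.34%) in the lowest 10% to 43.5% (41.0% to 46.1%) in the highest. The longer word AAGATGGC, which overlaps the string, was at 5.04% of REX1 summits and 2.02% of mutant summits of shared genes.
At the 2143 shared genes with the string at the REX1 summit, the median percentile was 92.7 for REX1 and 83.8 for the mutant, against 75.7 and 80.5 at the 11493 shared genes without it. The genes with the string thus ranked higher in the REX1 list, and by a smaller margin in the mutant list.

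A part of these strings coincided with the start of translation, since the string opens with ATG. Of the 2143 matches nearest to the REX1 summit, 478 (22.3%, 20.6% to 24.1%) began at an annotated start codon of the gene on the gene's strand. Of the 858 matches 0 to 100 bases after the TSS, 596 (69.5%, 66.3% to 72.5%) were on the gene's strand, against 46.4% (43.7% to 49.1%) of the other 1285. Of all 21476 genes with an annotated start codon, 5.03% had one that opens the string. Among such genes the share was 7.17% (6.75% to 7.61%) of the 13575 in both lists, 2.91% of REX1-only genes, 1.49% of mutant-only genes and 1.05% of genes in neither. At shared genes with a REX1 percentile of at least 90 the share was 11.8% (10.8% to 12.8%).

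The GC box had the opposite distribution. It was within 50 bp of the mutant summit at 41.8% (41.0% to 42.7%) of shared genes against 19.4% of flanking windows, and at 24.4% (22.0% to 27.03%) of mutant-only genes against 7.53%. At REX1 summits the shares were 23.6% (22.9% to 24.3%) of shared genes against 18.1%, and 9.21% (7.60% to 11.1%) of REX1-only genes against 5.09%. The string of the RNF12 motif logo, taken likewise from the study's RNF12 peaks, was at 19 of 13636 mutant summits of shared genes (0.139%, against 0.0257% of flanking windows) and at 7 REX1 summits (0.0513% against 0.0330%). Of its 20 matches over all mutant targets, 15 were in the 10% with the highest percentiles (1.01% of 1482, 0.614% to 1.66%, against 0.169% of flanking windows). The CCAAT box was less frequent at summits than in flanks in both lists, at 7.16% against 10.2% for REX1 and 4.41% against 10.8% for the mutant. The ETS word CCGGAAGT was at 2.30% of REX1 and 2.43% of mutant summits of shared genes, against 0.609% and 0.689% of flanking windows. The E-box CACGTG was at 3.74% and 4.22%, against 2.00% and 2.06%.

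Genes in both lists were last divided by the difference of their percentiles. The REX1 string was at the REX1 summit of 5.38% (4.17% to 6.90%) of the 1060 genes that ranked more than 50 points higher in the mutant list, and of 22.5% (18.7% to 26.7%) of the 418 that ranked more than 50 points higher in the REX1 list. The share stood at 11.2% where the mutant was up to 25 points higher and at 23.3% where REX1 was up to 25 points higher. CpG-rich promoters went the other way, from 71.3% (68.5% to 74.0%) in the first of these groups to 41.6% (37.0% to 46.4%) in the last. RNF12 WT targets made up 96.7% and 88.3% of these outer groups, and the median WT percentile was 79.9 and 70.1. The REX1 percentile enters this division, so the string's share describes the bins and is not independent of the rank.

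**Figure D5:**
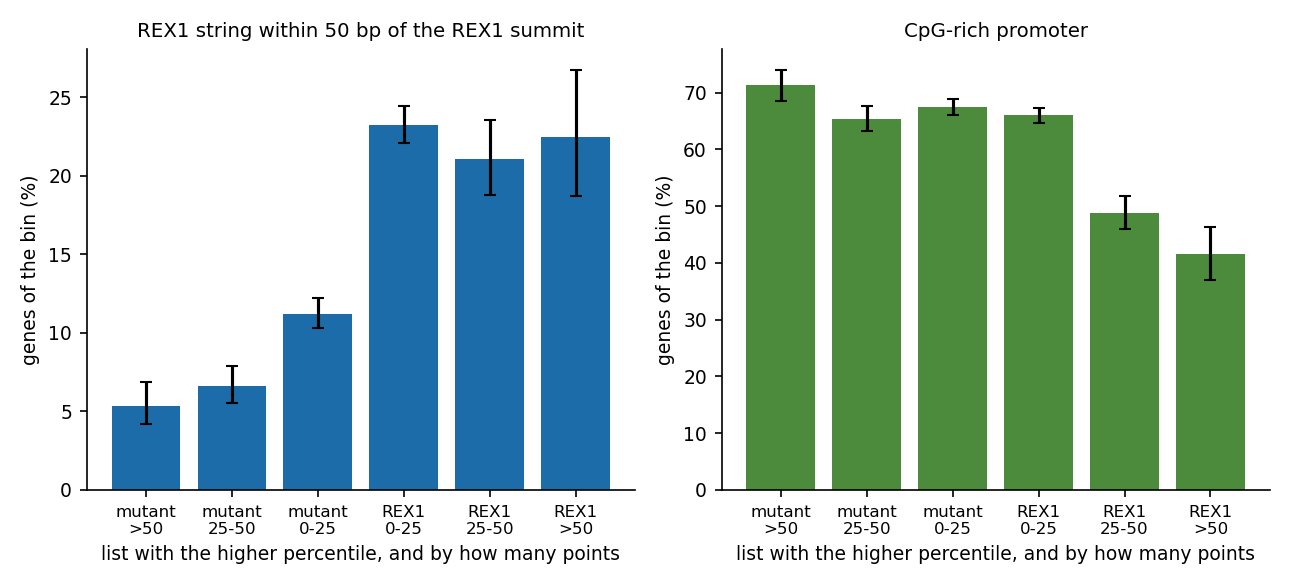
Genes in both lists in 6 bins by the list in which they ranked higher and by how many percentile points (x axis). Bars give the share of genes with the REX1 string within 50 bp of the REX1 summit (left, %) and with a CpG-rich promoter (right, %), with 95% Wilson intervals; the string runs from 5.38% to 22.5% and CpG-rich promoters from 71.3% to 41.6%.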

How the data were processed

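Peak lists of REX1, RNF12 H569A,C572A and RNF12 WT ChIP-seq were used, 1 library each; the control libraries were not analysed here. The authors trimmed reads with Trim Galore 0.6.7, aligned them with Bowtie2 2.5.0 to an mm10 genome masked at 129/Sv and Cast/Ei differences, split them by allele, merged the alleles with SAMtools 1.10 and called narrow peaks with MACS2 2.2.7.1 at default settings. The deposited columns are fold enrichment over control (a ratio) and −log10 p and −log10 q of each peak. The authors' summit offset gave the summit position. Read totals are not in the lists.

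TSSs were those of all transcripts of GENCODE M21 protein-coding genes, and sequence was GRCm38. The strongest promoter peak of a gene was that with the highest fold enrichment, expressed as its percentile among the list's peaks on chromosomes 1 to 19 and X. Copies of the 32-base summit word were counted on both strands. Motif strings, gene lists and the genes compared were chosen with earlier results of these data known. REX1 string letters follow the study's motif logo, and the strings of the NRF1 and RNF12 motifs are given by name.

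Genes named, all with symbols other than predicted ones and, outside the axis and pluripotency lists, single-copy summits, are the 10 entries with the highest lesser percentile, the 6 with the largest difference each way, the 6 strongest of each exclusive class, all members of the axis and pluripotency lists, and up to 2 shared and 1 exclusive member of each kind from every other list, not all of which are printed. Genes with the same strongest peak in every list that holds them are 1 entry, so Ptpa and Crat, which share only the mutant peak, are separate entries. Of 33 imprinted genes listed, 30 were matched. Shares have 95% Wilson intervals. The assignment and copy counting were tested on simulated data. Python 3.11.15, numpy 2.4.6, pandas 2.3.3, scipy 1.17.1 and matplotlib 3.10.9 were used.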

Additional observations from a re-analysis of the deposited data

How the results depend on the processing

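Alternatives changed 1 choice at a time; shares were held against their counting interval and counts of targets against a factor of 1.5. The rank correlation has no such interval and is given wherever it changed at all. The cause was not tested, except that stricter lists hold fewer peaks by construction. With TSSs within 500 bp, 92.0% of REX1 targets were mutant targets and 91.3% of mutant targets REX1 targets, the rank correlation was 0.240, and RNF12 WT targets were 96.0% of shared and 73.6% of mutant-only genes. Within 3 kb, the correlation was 0.255, and 58.2% of mutant-only and 52.0% of REX1-only genes were WT targets. With −log10 q of at least 5, the overlaps were 93.4% and 81.8%, the correlation 0.193, and WT targets 85.5% of shared, 34.03% of REX1-only and 62.9% of mutant-only genes. The 20000 peaks of highest −log10 q gave 7678 REX1 and 6355 mutant targets, 4086 in both, overlaps of 53.2% and 64.3%, a correlation of 0.123, and WT targets 77.8%, 58.1% and 63.6% of the classes. The gap between mutant-only and REX1-only genes was smaller at 3 kb and with these peaks. TSSs of protein-coding transcripts alone gave an overlap of 91.9% of mutant targets and a correlation of 0.252, and any base of the peak a correlation of 0.251. Leaving out chromosomes 10 and 12 gave a correlation of 0.242 and WT targets at 97.7% of shared genes, against 96.8% with all chromosomes. Shared genes on these chromosomes were thus WT targets less often than shared genes elsewhere. Single-copy summits gave overlaps of 91.8% and 93.8%, a correlation of 0.254, and WT targets at 78.2% of mutant-only genes. Ranked by −log10 q the correlation was 0.308, with each pair of peaks counted once 0.255, and with summits within 100 bp 0.305. Strongest summits coincided within 50 bp at 23.5% of shared genes, within 200 bp at 52.7%, and the nearest pairs within 100 bp at 68.7%. The values for WT targets under protein-coding TSSs, any base, left-out chromosomes and single-copy summits were chosen after seeing the data. No paired analysis was possible because each list comes from 1 library. Depth is unknown, so how far it limits the weakest peaks is not known.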

Other observations

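Chromosome X had the smallest share of targets among its genes of the 20 chromosomes, 50.9% of 948 genes for REX1 and 51.1% for the mutant, and the lowest overlap, with 88.4% (85.2% to 91.0%) of its REX1 targets in the mutant list. The median percentile of its targets was 80.1 for REX1 and 72.8 for the mutant, the lowest mutant value of any chromosome. Chromosome 12 had the largest share of targets, 81.5% and 81.2% of 643 genes, and the highest overlap, 96.4% (94.4% to 97.7%) of REX1 targets. The share of genes that were targets in both lists went from 34.9% of 4789 genes with 1 TSS to 86.8% of 7825 genes with 5 or more, and genes with more TSSs have more sequence within 1 kb of a TSS. Mutant targets whose summit word had 10 or more genome copies were REX1 targets in 56.9% (52.1% to 61.6%) of 418 genes and RNF12 WT targets in 62.0%, against 94.4% (94.0% to 94.8%) and 96.2% of 13799 single-copy targets.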
